A study of Mus musculus with 12 samples.

Results

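Of 10 endothelial and pericyte genes, 5 carried H3K27me3 over the start site in all 4 H3K27me3 peak lists of neonatal mouse cortex and no H3K27ac there, in the lists of sorted interneurons and in those of the remaining, mixed cortical cells. These 5 genes were Sox17, Foxc1, Kdr, Flt1 and Cldn5. H3K27ac lay at the start site of 1 gene, Pdgfrb, and was wider in the non-interneuron lists. The remaining 4 genes, Pecam1, Cdh5, Tek and Rgs5, had no peak of either mark within 1 kb of the start site in any of the 8 lists.

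The 10 genes were chosen by name as markers of the cells of blood vessels: Cldn5, Pecam1, Cdh5, Flt1, Kdr, Tek, Sox17 and Foxc1 for endothelial cells, with Foxc1 also used by mural cells, and Pdgfrb and Rgs5 for pericytes. They were 10 of 21938 protein-coding genes of the GENCODE annotation. Endothelial cells line the vessels, are sealed in the brain by tight junctions, and respond to growth factors through receptor kinases. Pericytes wrap the capillaries and are recruited by platelet-derived growth factor that endothelial cells release. Acetylation of histone H3 at lysine 27 (H3K27ac) marks active promoters and enhancers, whereas trimethylation at the same residue (H3K27me3) is placed by Polycomb and marks repressed or poised genes.

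Cortex was dissected at postnatal day 2 from pups heterozygous for Gad67-GFP, an allele that labels GABAergic cells, so both sorted populations came from animals that carried it. Flow sorting gave GFP+ cortical interneurons (CINs) and GFP- cells (non-CINs), a mixture that the study describes as rich in pyramidal neurons and glia, and in which vascular cells are a minor type. Each sample pooled tissue from several litters. Native chromatin immunoprecipitation gave 2 replicate peak lists for each mark in each population, 8 lists in all, and each was called against the matched input of 4 input libraries. The H3K27ac lists held 62505 and 46310 peaks in CINs and 59667 and 46040 in non-CINs. The H3K27me3 lists held 38158 and 36662 peaks in CINs and 45081 and 42575 in non-CINs. Sequencing depth is unknown here, so a missing peak says that the caller found none, not that the mark was absent. In a sorted mixture, fewer cells with a mark and less mark per cell cannot be told apart.

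Each gene was read from 5 kb upstream of its transcription start site (TSS) to the end of the gene, in mm10 coordinates. Peaks 500 bp or less apart within a list were merged, and covered length counts the merged peaks. A peak was placed at the TSS when it came within 1 kb of it. Strength is given as the percentile of a peak's fold enrichment over input within its own list.

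The sort was checked first with genes that define the populations. Of 7 CIN markers, 4 (Gad2, Dlx1, Dlx2 and Slc32a1) had H3K27ac at the TSS in both CIN lists and 0 had it in both non-CIN lists. H3K27me3 did not separate the populations by this count. It lay at the TSS of 6 of the 7 in every list, these 4 included. Of 7 pyramidal neuron markers, 1 had H3K27ac at the TSS in both non-CIN lists (Emx1) and 1 in both CIN lists (Neurod6). H3K27ac at astrocyte markers (4 of 6) and oligodendrocyte lineage markers (5 of 5) was called in both CIN lists as well as in both non-CIN lists. Few markers of the other rare cell types had H3K27ac, which lay at the TSS of 1 of 8 microglia markers (P2ry12) and 0 of 8 meningeal fibroblast markers, the same in both populations.

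At the TSS, 1 of the 10 vascular genes had H3K27ac in both CIN lists, where 48.3% of all protein-coding genes had it, and the same 1 had it in both non-CIN lists, where the share of all genes was 47.5%. For H3K27me3 the count was 5 of 10 in both CIN lists and 5 of 10 in both non-CIN lists, beside 12.8% of all genes in CINs and 12.8% in non-CINs. The state of the 5 genes, H3K27me3 at the TSS in all 4 lists with H3K27ac in none, was that of 7.04% of all genes. The absence of both marks, found at 4 of 10, was that of 34.4% of all genes. Over the whole gene window, H3K27ac was found in both CIN lists at 4 of 10 genes (Pecam1, Tek, Pdgfrb and Rgs5) beside 59.6% of all genes, and in both non-CIN lists at 4 of 10 (Pecam1, Flt1, Pdgfrb and Rgs5) beside 58.5%. H3K27me3 in the window was found at 5 of 10 genes in CINs and at the same 5 in non-CINs, beside 23.7% and 24.9% of all genes.

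**Figure D1:**
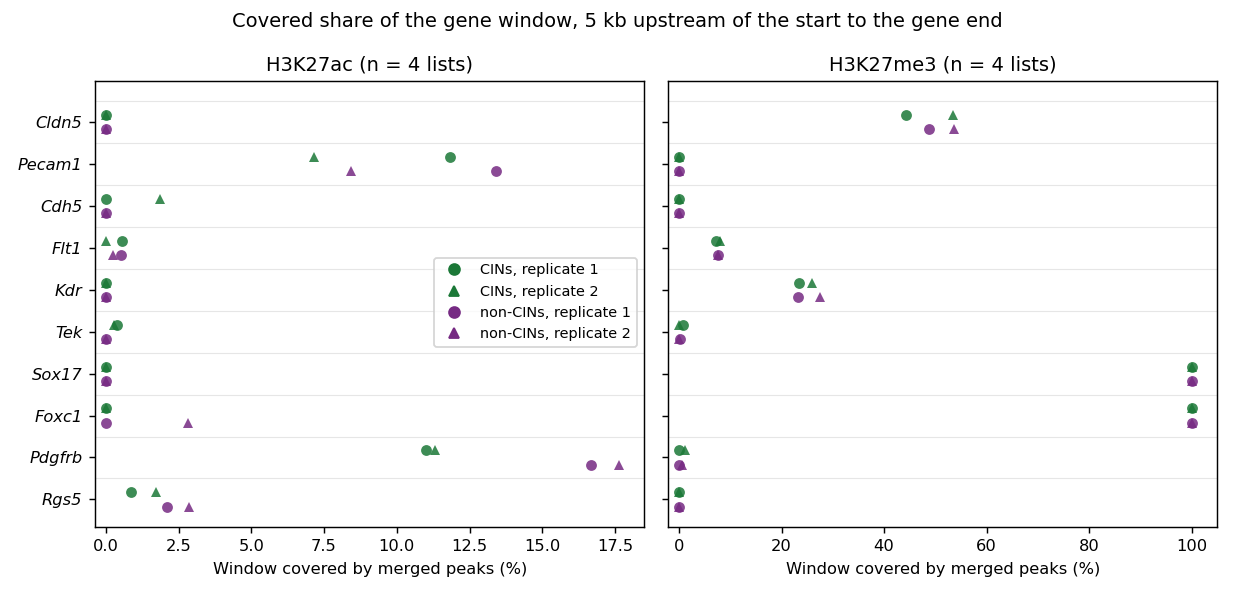
Each point is the share of a gene's window (5 kb upstream of the TSS to the gene end, %) covered by merged H3K27ac peaks (left) or H3K27me3 peaks (right) in 1 list, with CINs in green, non-CINs in purple, circles for replicate 1 and triangles for replicate 2. Sox17 and Foxc1 sit at 100% H3K27me3 in all 4 lists, Pecam1, Cdh5 and Rgs5 at 0%, and Pdgfrb H3K27ac is at 11.3% or less in CINs and at 16.7% or more in non-CINs; the 2 panels have different scales.

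RefSeq promoter sequences (GRCm38.p6) were matched for 6 of the 10 genes: Cldn5, Flt1, Kdr, Tek, Foxc1 and Rgs5. Shown here 5′ to 3′ on the gene's own strand are the 250 bases before the TSS of 2 genes with an H3K27me3 domain, Foxc1 (chr13:31806396-31806645, plus strand) and Kdr (chr5:75978456-75978705, minus strand), and of 2 genes with neither mark at the TSS, Tek (chr4:94739039-94739288, plus strand) and Rgs5 (chr1:169655251-169655500, plus strand), with each CpG in capitals.
Foxc1: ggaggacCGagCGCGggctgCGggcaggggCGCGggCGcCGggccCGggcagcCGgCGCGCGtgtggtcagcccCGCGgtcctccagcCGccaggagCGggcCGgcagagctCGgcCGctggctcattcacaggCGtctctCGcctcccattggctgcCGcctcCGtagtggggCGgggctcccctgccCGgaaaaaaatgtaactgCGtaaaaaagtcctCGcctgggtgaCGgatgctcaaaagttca
Kdr: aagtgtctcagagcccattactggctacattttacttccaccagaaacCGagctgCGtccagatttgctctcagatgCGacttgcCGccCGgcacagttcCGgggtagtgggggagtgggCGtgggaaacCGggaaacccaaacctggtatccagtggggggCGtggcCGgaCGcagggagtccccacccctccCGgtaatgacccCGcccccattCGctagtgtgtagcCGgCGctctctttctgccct
Tek: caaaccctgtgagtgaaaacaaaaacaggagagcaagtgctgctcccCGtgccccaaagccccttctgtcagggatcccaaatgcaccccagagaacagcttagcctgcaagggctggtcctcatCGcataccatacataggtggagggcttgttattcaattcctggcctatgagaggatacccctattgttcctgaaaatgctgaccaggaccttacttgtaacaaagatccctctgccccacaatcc
Rgs5: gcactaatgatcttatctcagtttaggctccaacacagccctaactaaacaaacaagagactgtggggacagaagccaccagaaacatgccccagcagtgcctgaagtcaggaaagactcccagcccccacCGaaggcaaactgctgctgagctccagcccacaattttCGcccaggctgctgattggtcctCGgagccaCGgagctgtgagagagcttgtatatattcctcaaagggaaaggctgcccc

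The Foxc1 promoter held 29 CpG sites and the Kdr promoter 16, whereas Tek held 2 and Rgs5 held 4. The other 2 matched genes with H3K27me3 at the TSS, Flt1 and Cldn5, held 23 and 12. The 4 marked promoters each had more CpG sites than either bare promoter. Over the 32851 promoters in the table the median was 6 CpG sites, and over the 14278 protein-coding genes matched to a promoter it was 12, the value of Cldn5. Of these genes, those with 4 CpG sites or fewer (3941 genes) had neither mark at the TSS in any list in 77.3% of cases, H3K27me3 in all 4 lists in 4.39% and H3K27ac in all 4 lists in 8.78%. Those with 20 or more (3729 genes) had neither mark in 1.45%, H3K27me3 in all 4 lists in 14.5% and H3K27ac in all 4 lists in 80.2%. Flt1 and Foxc1 fall in this last class. The letters AGGAAG, a stretch found in many ETS factor sites, were searched on both strands without any other motif, and 2 copies were found at Flt1 and 0 at the other 5 genes. These 6 letters were present in 29.5% of all promoters of the same length.

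**Figure D2:**
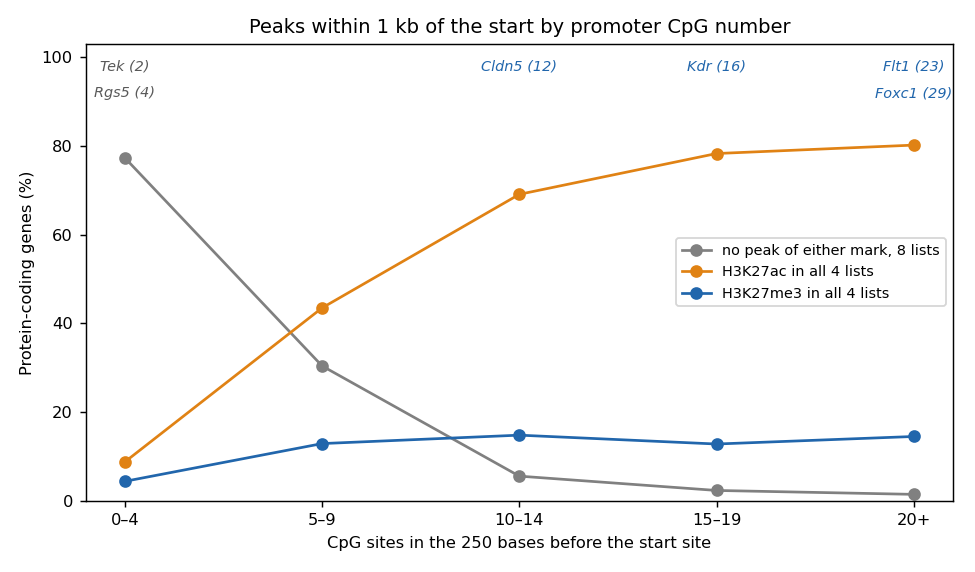
The x axis bins protein-coding genes by the number of CpG sites in the 250 bases before the TSS, and the y axis gives the share of each bin (%) with no peak of either mark within 1 kb of the TSS in 8 lists (grey), with H3K27ac in all 4 lists (orange) or with H3K27me3 in all 4 lists (blue). The 6 matched genes are written above their bin with their CpG count, in blue where H3K27me3 covered the TSS in all 4 lists; the grey line falls from 77.3% to 1.45% while Tek and Rgs5 sit in the lowest bin.

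Both transcription factors among the 10 genes, Sox17 and Foxc1, had their whole window covered by H3K27me3. Sox17 (chr1:4490931-4497354, minus strand) encodes an SRY-box factor needed for arterial identity and for vessel formation in the brain. All 11424 bp of its window lay under H3K27me3 in each of the 4 lists. The merged domain over its TSS measured 20995 bp and 21583 bp in CINs and 16835 bp and 21567 bp in non-CINs, so the non-CIN replicate 1 domain was the shortest and the other 3 were nearly equal. Its fold enrichment ranked between the 99.8 and the 99.9 percentile of each list. No H3K27ac peak was called in the window, and the nearest one lay 46464 bp and 70010 bp from the TSS in CINs and 46272 bp and 46333 bp in non-CINs. The start of a noncoding transcript, Gm37587, lies 803 bp from the Sox17 TSS under the same domain, and the lists cannot separate the pair.

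Foxc1 (chr13:31806633-31812476, plus strand) encodes a forkhead factor of pericytes, endothelium and meninges. Its whole window of 10844 bp was covered by H3K27me3 in all 4 lists. The domain measured 18244 bp and 18854 bp in CINs and 18031 bp and 18210 bp in non-CINs, so both CIN domains were slightly longer than both non-CIN domains. Its strength stood between the 99.3 and the 99.5 percentile. A single H3K27ac peak of 307 bp was called inside the only exon, 3817 bp from the TSS, in non-CIN replicate 2. That peak ranked at the 13.4 percentile of its list, and the other 3 H3K27ac lists held none in the window. The start of the antisense transcript Gm11379, 9094 bp from that of Foxc1, lies under or within 1 kb of the domain.

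The receptors Kdr and Flt1 carried H3K27me3 over the promoter and the first part of the gene, not over the whole gene body. Kdr (chr5:75932827-75978458, minus strand) encodes the main signalling receptor for vascular endothelial growth factor. H3K27me3 covered 11869 bp and 13176 bp of its window in CINs and 11740 bp and 13909 bp in non-CINs, which is between 23.2% and 27.5% of the window. The populations overlapped, and replicate 2 was higher than replicate 1 in each. No H3K27ac peak was called anywhere in the Kdr window, with the nearest 96560 bp or more from the TSS.

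Flt1 (chr5:147561604-147726011, minus strand) encodes a receptor that also acts as a decoy for the same growth factor. H3K27me3 covered 12150 bp and 13403 bp of the window in CINs and 13059 bp and 12987 bp in non-CINs. The domain over the TSS ranked between the 99.1 and the 99.4 percentile by strength and was 10990 bp to 13737 bp long. H3K27ac was limited to narrow intronic peaks that covered 915 bp and 0 bp in CINs and 896 bp and 419 bp in non-CINs, none closer than 39940 bp to the TSS. In intron 17 a peak was called in 3 of the 4 lists, with 226 bp in CIN replicate 1, 696 bp in non-CIN replicate 1 and 419 bp in non-CIN replicate 2.

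Cldn5 (chr16:18776847-18778262, plus strand) encodes claudin 5, the principal tight junction protein of brain endothelium. Its H3K27me3 domains were the shortest of the 5, at 2796 bp and 4234 bp in CINs and 3495 bp and 4168 bp in non-CINs, yet they covered the single-exon gene from end to end. Within the window the mark covered 2846 bp and 3424 bp in CINs and 3122 bp and 3441 bp in non-CINs. The non-CIN value was higher in both replicates, by 276 bp and 17 bp, but the populations overlapped. All of this difference lay upstream of the gene, and in a window from the TSS it was 0 bp. Strength ranked between the 94.5 and the 98.0 percentile. No H3K27ac peak was called in the window, and the nearest lay 19635 bp to 19766 bp from the TSS in all 4 lists.

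**Figure D3:**
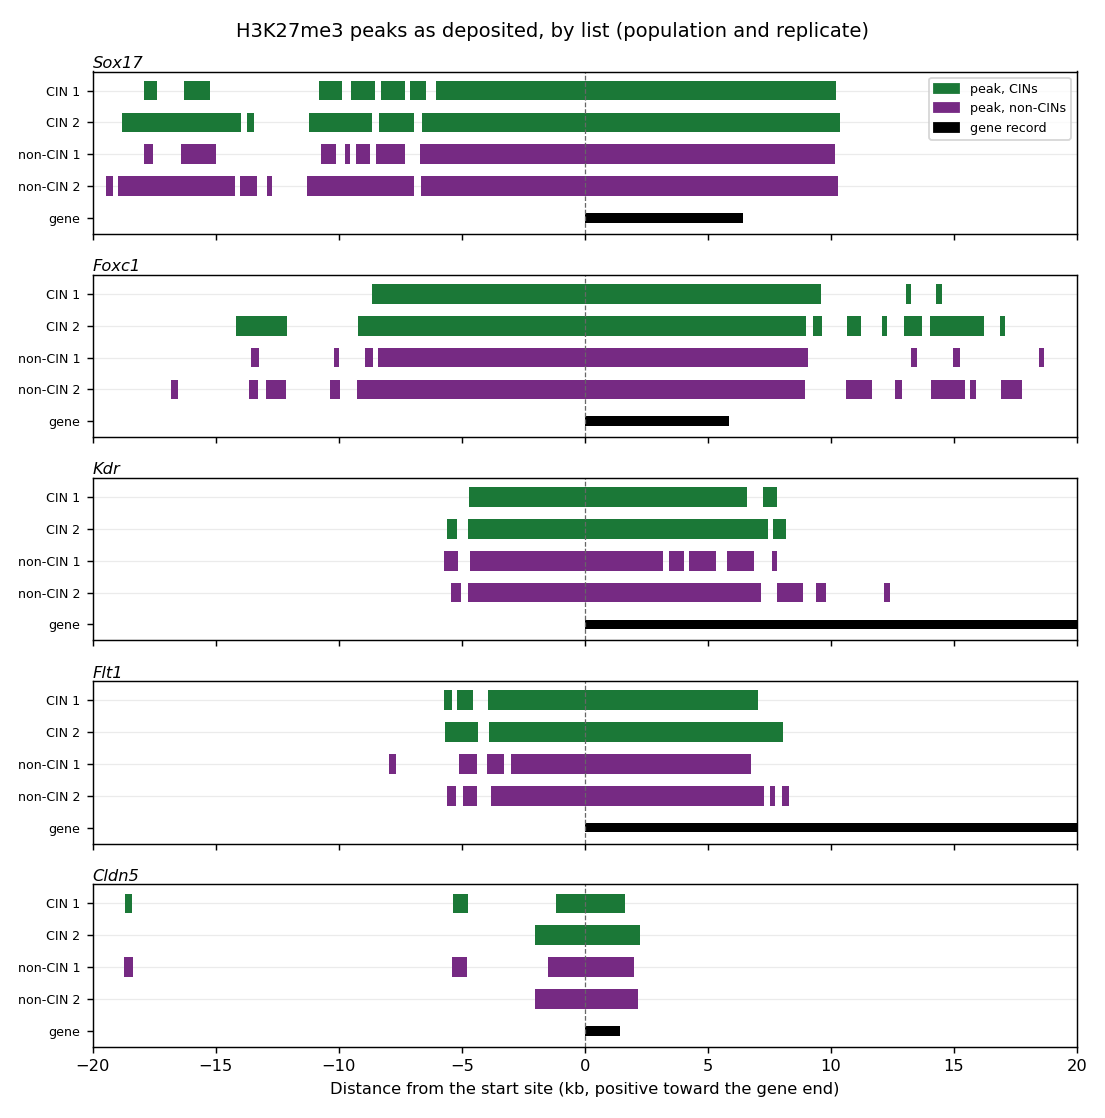
Bars are H3K27me3 peaks as deposited, unmerged, plotted by distance from the TSS (kb, positive toward the gene end) for the 5 marked genes, with 1 row for each list (green CINs, purple non-CINs) and the gene as a black bar. In every row a peak spans the dashed line at the TSS, and the domains of the same gene end at similar distances in CINs and non-CINs, with Sox17 and Foxc1 the widest and Cldn5 the narrowest.

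Pdgfrb was the 1 gene of the 10 with H3K27ac at the TSS. Pdgfrb (chr18:61045150-61085061, plus strand) encodes the platelet-derived growth factor receptor by which pericytes are recruited. H3K27ac covered 4948 bp and 5085 bp of its window in CINs and 7487 bp and 7916 bp in non-CINs. The 2 populations did not overlap, and non-CINs were higher by 2685 bp on average with a pooled SD of 225 bp (n = 2 lists per population), and the two-sided exact permutation test gave p = 0.333, the smallest that 2 lists against 2 allow. The merged peak at the TSS was 373 bp and 202 bp long in CINs and 4747 bp and 4553 bp in non-CINs. It spanned the TSS itself in both non-CIN lists and in neither CIN list, where it began 691 bp and 18 bp inside the gene. These lengths depend on merging at 500 bp. Further CIN peaks, beyond that gap, lay between 1741 bp and 4356 bp from the TSS in replicate 1 and between 1033 bp and 4229 bp in replicate 2. Unmerged, the peak over the TSS was 1455 bp long in non-CIN replicate 1 and 4553 bp in replicate 2. The strongest peak of the window ranked at the 39.3 and 52.6 percentile in CINs and at the 74.1 and 72.9 percentile in non-CINs, which is far from the top of the list in either population. With peaks limited to −log10 q of at least 4, CIN replicate 1 had no H3K27ac at the TSS while CIN replicate 2 kept its peak, and the mean difference was 5191 bp. All H3K27ac peaks inside the gene lay in exon 1 or intron 1, within 14187 bp of the TSS. H3K27me3 at Pdgfrb was sparse, with 0 bp and 492 bp in CINs and 0 bp and 238 bp in non-CINs, so both replicate 1 lists held none.

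Rgs5, which encodes a regulator of G protein signalling that is abundant in pericytes, had H3K27ac away from the promoter. In the Rgs5 window (gene at chr1:169655501-169695813, plus strand) H3K27ac covered 397 bp and 776 bp in CINs and 951 bp and 1299 bp in non-CINs. Both non-CIN values were again the higher ones, by 538.5 bp on average with a pooled SD of 257 bp and an exact permutation p = 0.333. The difference was 848 bp both at −log10 q of at least 4 and with the strongest 30000 peaks, and 1339 bp in a window from 20 kb upstream. All 4 lists shared a peak in intron 1, between 16218 bp and 17316 bp from the TSS. It measured 397 bp and 776 bp in CINs and 597 bp and 1099 bp in non-CINs. A second peak nearer the TSS was called in the non-CIN lists alone, with 354 bp at a distance of 4109 bp in replicate 1 and 200 bp at 3724 bp in replicate 2, but the pair did not overlap each other. The strongest Rgs5 peak ranked at the 34.1 and 7.55 percentile in CINs and the 65.6 and 42.0 percentile in non-CINs. No H3K27me3 was called in the window, and the nearest peak was 55122 bp or more away.

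Tek went the opposite way, on small peaks. Tek (chr4:94739289-94874976, plus strand) encodes the angiopoietin receptor Tie2. H3K27ac covered 533 bp and 408 bp of the window in CINs and 0 bp and 0 bp in non-CINs, a difference of 470.5 bp with a pooled SD of 62.5 bp and an exact permutation p = 0.333. With the strongest 30000 peaks of each list, non-CINs minus CINs was -166.5 bp, and Tek no longer had more H3K27ac in CINs in both replicates. A peak in intron 1, 13349 bp and 13245 bp from the TSS, was shared by the CIN lists, with 333 bp in replicate 1 and 408 bp in replicate 2, and it ranked at the 59.6 and 28.1 percentile. H3K27me3 was called in the replicate 1 lists alone, with 1035 bp in CINs and 411 bp in non-CINs, 83401 bp and 84424 bp from the TSS.

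Pecam1 encodes an adhesion molecule of endothelial cell contacts (also known as CD31). Within the gene windows it had the strongest H3K27ac of the 10 genes, but not near its TSS. The Pecam1 gene record (chr11:106654217-106750628, minus strand) has 5 transcripts with 5 different starts. H3K27ac covered 12010 bp and 7251 bp of the window in CINs and 13606 bp and 8534 bp in non-CINs. The non-CIN value was higher in both replicates, by 1596 bp and 1283 bp, but replicate 1 exceeded replicate 2 by more than this in each population, and the exact permutation test gave p = 0.667. With the strongest 30000 peaks of each list the sign of the mean difference turned, and non-CINs minus CINs was -396.5 bp. The strongest peak lay in intron 14, between 74367 bp and 77505 bp from the TSS, in all 4 lists, with a length of 2994 bp and 1926 bp in CINs and 2222 bp and 2050 bp in non-CINs. It ranked at the 98.1 and 97.5 percentile in CINs and at the 96.7 and 93.5 percentile in non-CINs. The nearest peak to the TSS was 12880 bp and 1129 bp away in CINs and 8600 bp and 12926 bp away in non-CINs. The peak at 1129 bp, 213 bp long in CIN replicate 2, lies upstream on the side of Milr1, whose own start is 598 bp from that of Pecam1. No H3K27me3 was called within 119977 bp of the Pecam1 TSS.

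Cdh5 was nearly bare. Cdh5 (chr8:104101625-104144511, plus strand) encodes VE-cadherin, the adherens junction protein that defines endothelial cells. No H3K27me3 was called in its window in any list, and the nearest lay 49375 bp or more from the TSS. H3K27ac was called in CIN replicate 2 alone, as 2 peaks of 262 bp and 229 bp in intron 1 at the 10.7 and 6.87 percentile, and the other 3 lists held 0 bp.

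**Figure D4:**
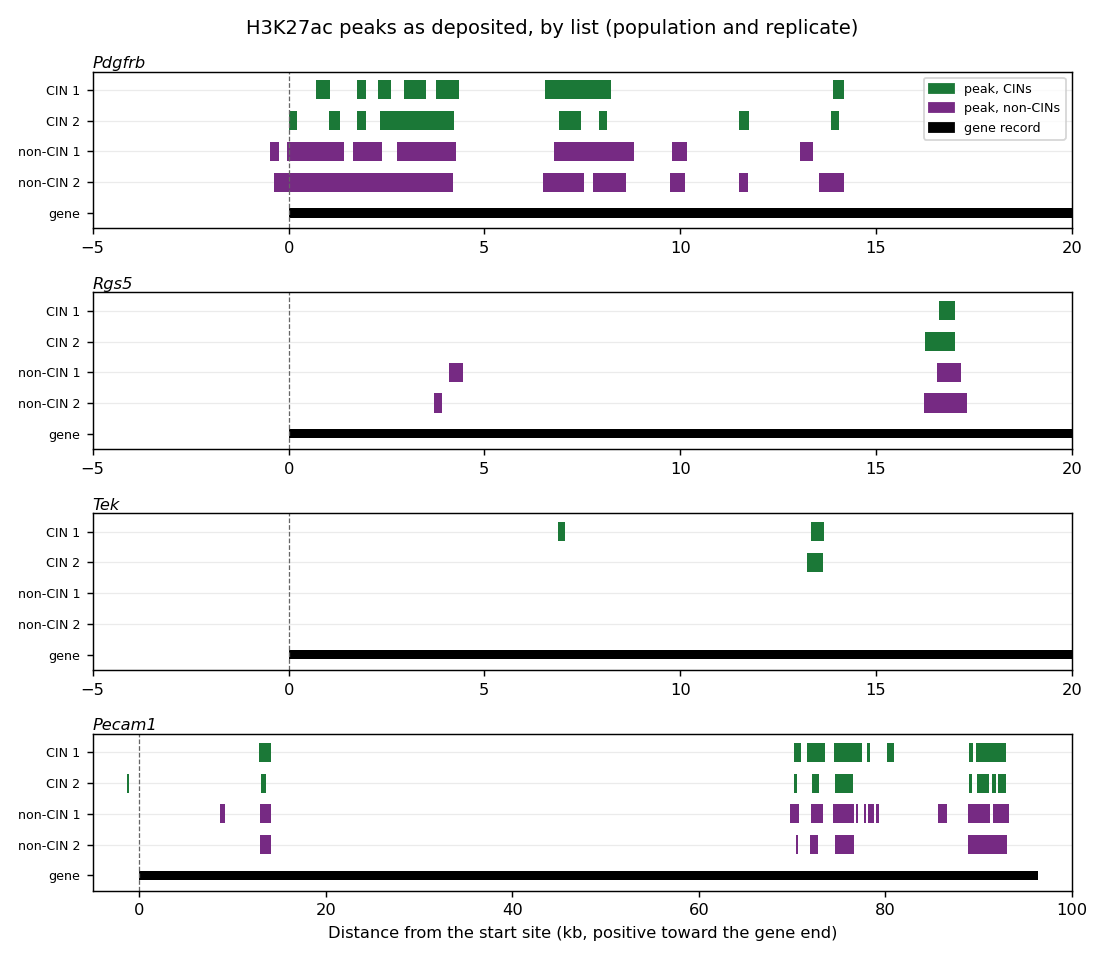
Bars are H3K27ac peaks as deposited, unmerged, plotted by distance from the TSS (kb, positive toward the gene end) for Pdgfrb, Rgs5, Tek and Pecam1, with 1 row for each list (green CINs, purple non-CINs), the gene as a black bar and a longer axis for Pecam1. At Pdgfrb a peak crosses the dashed TSS line in both non-CIN rows and in neither CIN row, all 4 Rgs5 rows share the peak between 16218 bp and 17316 bp, Tek has peaks in the CIN rows alone, and most Pecam1 peaks gather far from the TSS, in the second part of the gene.

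Counted over the 10 genes, H3K27ac was more extensive in non-CINs than in CINs of the same replicate number, in both replicates, at 3 genes (Pecam1, Pdgfrb and Rgs5), beside 19.9% of all protein-coding genes. The opposite was found at 1 gene (Tek), beside 19.3% of all genes. H3K27me3 was more extensive in non-CINs at 1 gene (Cldn5), beside 10.4%, and in CINs at 0, beside 6.55%. Without pairing by replicate number, the populations did not overlap, with non-CINs higher, for H3K27ac at 2 genes (Pdgfrb and Rgs5, beside 12.5% of all genes), and CINs were higher at 1 (Tek, beside 11.9%). For H3K27me3 the populations overlapped at all 10 genes, beside 4.56% of all genes higher in non-CINs and 3.05% higher in CINs. With so few genes and shares of this size in the background, these counts of differences do not set the 10 genes apart from other genes in either direction. Over the 10 windows together, H3K27me3 covered 50168 bp and 52763 bp in CINs and 50600 bp and 52843 bp in non-CINs, so the replicates differed by more than the populations. H3K27ac covered 18803 bp and 14405 bp in CINs and 22940 bp and 18475 bp in non-CINs, and Pecam1 and Pdgfrb made up most of it in every list. Over the windows of the 6 astrocyte markers, H3K27ac was also wider in non-CINs, with 66987 bp and 59556 bp in CINs and 94066 bp and 93384 bp in non-CINs, and the part of this in the values of Pdgfrb, Rgs5 and Pecam1 was not tested.

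A further 66 vascular genes, listed by function, were read in the same way. H3K27ac lay at the TSS of 17 of 66 in both CIN lists (beside 48.3% of all genes) and of 19 of 66 in both non-CIN lists (beside 47.5%). H3K27me3 lay at the TSS of 30 and 28, beside 12.8% of all genes in each population. The state of Sox17 and Kdr, H3K27me3 in all 4 lists with no H3K27ac, was that of 20 of 66, beside 7.04% of all genes. The bare state of Cdh5 and Tek was that of 13 of 66, a smaller share than the 34.4% of all genes. The same shares of all genes apply to the smaller lists below where the rule is the same. As with Sox17 and Foxc1, all 11 endothelial transcription factors had H3K27me3 at the TSS in all 4 lists, 8 of them without H3K27ac in any list. Of 10 junction and surface proteins, the class of Cldn5, Cdh5 and Pecam1, 4 had H3K27me3 in all 4 lists and 4 had neither mark. Of 11 other vascular receptors, the class of Kdr, Flt1 and Tek, 4 had H3K27me3 in all 4 lists and 5 had neither mark, including Tie1, the partner of Tek. Of 17 other pericyte and smooth muscle genes, the class of Pdgfrb and Rgs5, H3K27ac was at the TSS of 3 in both CIN lists and of 5 in both non-CIN lists, the same 3 (Cspg4, Notch3 and Vtn) with Heyl and Ednra added. Of 9 vascular ligands, 3 had H3K27ac in all 4 lists and 2 had H3K27me3 in all 4 lists. Of 8 transporters of the blood-brain barrier, 5 had H3K27ac in both CIN lists and 5 in both non-CIN lists. Several of these genes, such as the glucose transporter Slc2a1 and the growth factor Vegfa, are also used by neurons or glia.

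**Figure D5:**
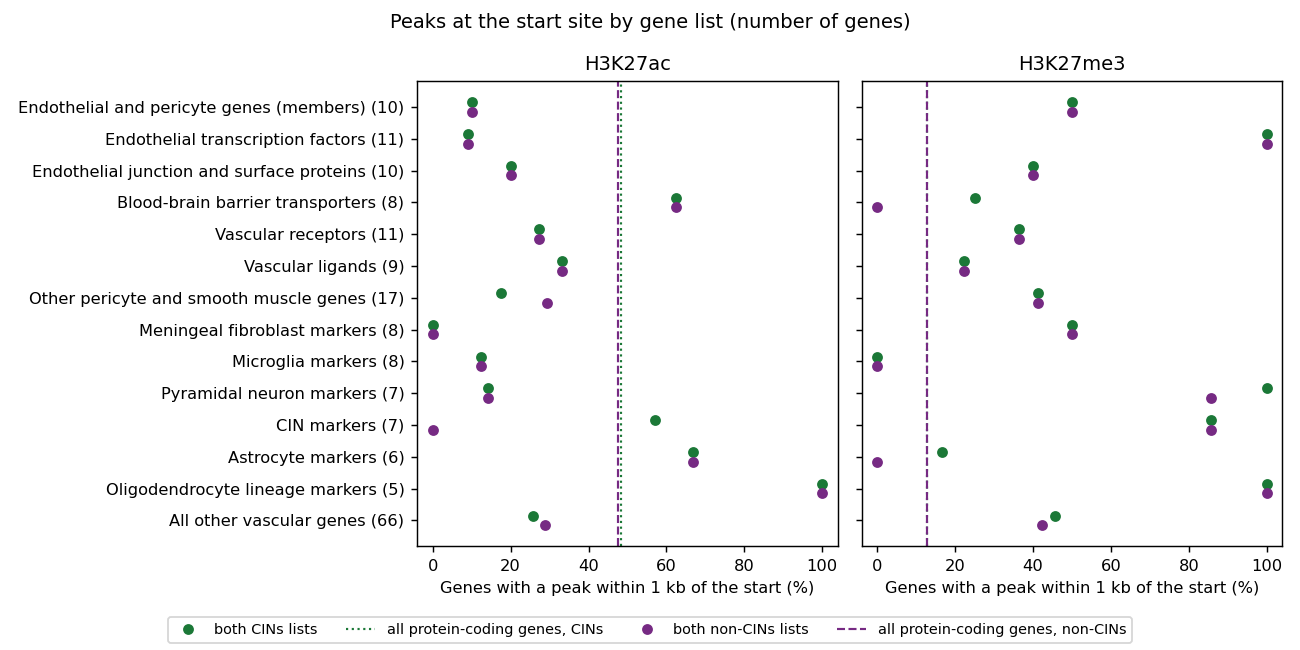
Each point is the share of a gene list (%, number of genes in parentheses) with an H3K27ac peak (left) or an H3K27me3 peak (right) within 1 kb of the TSS in both lists of a population, with CINs in green and non-CINs in purple, and the vertical lines give the share over all 21938 protein-coding genes (at 12.8% for both populations on the right). The 10 endothelial and pericyte genes sit at 10% for H3K27ac and 50% for H3K27me3 in both populations, and the endothelial transcription factors at 100% for H3K27me3.

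Among these 66 genes, H3K27ac was more extensive in non-CINs in both replicates at 22 (33.3%, beside 19.9% of all genes) and in CINs at 7 (10.6%, beside 19.3%). H3K27me3 was more extensive in non-CINs at 12 (18.2%, beside 10.4%) and in CINs at 13 (19.7%, beside 6.55%). Without pairing by replicate number, the populations did not overlap at fewer genes, with H3K27ac higher in non-CINs at 17 (beside 12.5% of all genes) and in CINs at 4 (beside 11.9%), and H3K27me3 higher in non-CINs at 5 (beside 4.56%) and in CINs at 6 (beside 3.05%). The astrocyte markers moved with the larger H3K27ac count, since all 6 were more extensive in non-CINs in both replicates, and their part in the vascular counts was not tested. One gene, Slco1a4, an organic anion transporter of brain endothelium, had H3K27ac at the TSS in both non-CIN lists and in no CIN list. The mark covered 501 bp and 381 bp of its window. These were weak peaks, at the 45.0 and 6.27 percentile of their lists. The largest H3K27ac differences toward non-CINs were at Slco1c1, a thyroid hormone transporter of endothelium and astrocytes, at Lef1, a Wnt effector, and, with equal values, at Slc7a5, an amino acid transporter, and Vegfa. The populations overlapped at Slc7a5 and not at the other 3. H3K27ac covered 9175 bp and 10198 bp at Slco1c1 in CINs and 13788 bp and 15365 bp in non-CINs. At Lef1 it covered 1349 bp and 960 bp in CINs and 4876 bp and 2977 bp in non-CINs. Toward CINs the largest were at Ets1, Angpt2 and Ndufa4l2, with 9762 bp and 6741 bp in CINs and 4652 bp and 2304 bp in non-CINs at Ets1, while the populations overlapped at Angpt2 and Ndufa4l2. At Ets1, an ETS factor, H3K27me3 moved the other way and covered 42556 bp and 59676 bp in CINs and 62672 bp and 76621 bp in non-CINs, ahead of Tjp1 and Dll4, where the populations did not overlap either. Toward CINs the largest H3K27me3 differences were at Flt4, Sox7 and, with overlapping populations, Heyl, with 6070 bp and 8258 bp in CINs and 2558 bp and 4664 bp in non-CINs at Flt4, which encodes a receptor for lymphatic growth factors.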

How the data were processed

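Deposited broad peak lists for 8 ChIP libraries of 2 sorted populations were used; each holds peak positions, a score (10 times −log10 q as a whole number), the fold enrichment ratio over input, and −log10 p and −log10 q, as the authors' peak caller wrote them. Per the labels and methods, the authors used BWA 0.7.15 (mm10), handled the alignments in SAMtools, and ran MACS2 for broad peaks (2.2.7 per the submitters' processing notes) in every replicate separately, with the matched input as control, under a q value cutoff and without a model or local background. No counts of reads were used.

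The genes and lists were chosen with earlier results of these data known. Genes came from GENCODE M21 (basic), with the TSS at the 5′ end of the gene record. Peaks on unassembled scaffolds were left out, and peaks within 500 bp were merged, as the study did. Red blood cell markers are not reported here. All 10 genes are named, with those of the 66 further vascular genes that had H3K27ac at the TSS in both lists of 1 population alone, and up to 3 in each direction with the largest difference in mean covered length among those with more in 1 population in both replicates; other lists are given as counts. Same-numbered lists were compared, since the study compared populations within each replicate. As a check, the deviations of same-numbered lists from their population's mean correlated at 0.314 for H3K27ac over 14672 genes and at 0.722 for H3K27me3 over 8941 genes; nothing in the labels says what a number marks beyond a replicate, so differences measure the spread between these samples. The exact permutation test with 2 lists against 2 cannot go below p = 0.333. Interval functions were tested on simulated data with 1000 windows, of which 200 had a planted change and 200 were recovered. Analyses used Python 3.11.15, NumPy 2.4.6 and, for tests, bedtools 2.31.1. Alternatives were: no merging, −log10 q of at least 4, the strongest 30000 peaks, either replicate left out, other windows, other TSS distances and no pairing.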

Additional observations from a re-analysis of the deposited data

How the results depend on the processing

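The 5 genes with H3K27me3 at the TSS were counted as 5 in both populations under no merging, stricter peaks, other TSS distances and either replicate left out, except that CIN replicate 2 alone gave 6, with Pdgfrb added by a 289 bp peak. Of 2 alternatives chosen after seeing the data, using any annotated TSS left each count within 1.5 times its value, and the other left out every peak within 1 kb of another gene's TSS: the H3K27me3 counts at the TSS and in the window then fell to 3 in both populations, since the Sox17 domain covers the start of the noncoding Gm37587 and the Foxc1 domain comes within 1 kb of that of Gm11379. H3K27ac in CINs was less stable: the TSS count of 1 became 0 at −log10 q of at least 4, 0 with the strongest 30000 peaks and 0 when the peak had to span the TSS, and the window count of 4 became 2 and 1 under the first 2 of these. The Pdgfrb H3K27ac difference of 2685 bp stayed toward non-CINs under each alternative run and ranged from 2266.5 bp to 5191 bp. The Rgs5 difference of 538.5 bp was 848 bp in both stricter peak sets and 1339 bp from 20 kb upstream. The Tek difference stayed toward CINs, down to -166.5 bp with the strongest 30000 peaks.

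For genes with more of a mark in 1 population, leaving out a replicate gave counts of 3 to 5 for H3K27ac in non-CINs and 2 to 2 for H3K27ac in CINs, H3K27me3 in non-CINs and H3K27me3 in CINs, where fewer lists had to meet the rule. The strongest 30000 peaks gave 0 for H3K27ac in CINs and turned the Pecam1 H3K27ac difference to -396.5 bp, and −log10 q of at least 4 gave 1 for H3K27me3 in CINs; the cause of each was not tested. A window from 20 kb upstream gave 3 for H3K27me3 in non-CINs, and one from the TSS left a Cldn5 difference of 0 bp. Without the replicate block, that is with no pairing by number, the H3K27me3 count in non-CINs went from 1 to 0 (Cldn5), and no other count crossed 1.5 times its value. Depth is unknown, so for the small H3K27ac peaks of Tek, Rgs5, Cdh5 and Flt1 a list without a peak does not show that the mark was absent.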

Other observations

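The state of Sox17, Foxc1, Kdr, Flt1 and Cldn5, H3K27me3 at the TSS in all 4 lists with H3K27ac in none, was also that of the pyramidal neuron markers Neurod2, Tbr1 and Slc17a7, although the study describes the non-CIN mixture as rich in these neurons. At Tbr1 the H3K27me3 peak ranked at the 99.3 and 99.6 percentile in non-CINs. By peaks at the gene-record TSS, these 3 genes and the 5 vascular genes had the same state in non-CINs.

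The 5 oligodendrocyte lineage markers (Olig1, Olig2, Sox10, Pdgfra and Nkx2-2) carried both marks at the TSS in all 4 lists of each. Of 8 microglia markers, 6 had neither mark at the TSS in any list, as Pecam1, Cdh5, Tek and Rgs5 did (beside 34.4% of all genes). H3K27me3 was in both lists of a population at 0 of the 8. Of 8 meningeal fibroblast markers, 4 (Col1a1, Col1a2, Foxd1 and Aldh1a2) had H3K27me3 in all 4 lists with no H3K27ac, beside 7.04% of all genes. This was also the state of 5 of the 10 vascular genes, but their peaks ranked at the 94.5 percentile or higher in every list. Col1a2 ranked between the 14.8 and the 60.2 percentile, and Col1a1 at the 23.9 percentile in CIN replicate 1. At the gene-record start of Gad1 no peak of either mark was called in any list. This concerns that start alone, since the study reported more H3K27ac and less H3K27me3 at Gad1 in CINs than in non-CINs.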
